A study of Homo sapiens with 3 samples.

Results

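The canonical clustered histone genes encode the core histones H2A, H2B, H3 and H4 and the linker histone H1 that package newly replicated DNA. They were chosen as the protein-coding genes of the deposited table whose GENCODE symbol is H1-1 to H1-6 or belongs to the numbered H2AC, H2BC, H3C or H4C series. Of 58333 genes in the table, 64 met this definition, and the 28 with a mean log2 value of at least 4 over the 6 libraries are described here. The choice used the mean over all libraries and no comparison between them, so a member low in 1 condition could reach the limit through the others. These 28 genes comprised 2 of 6 H1 genes, 5 of 15 H2A genes, 10 of 18 H2B genes, 3 of 10 H3 genes and 8 of 15 H4 genes. On the genome, 22 lay on chromosome 6, 5 on chromosome 1 and 1, H4C16, on chromosome 12.

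Most messenger RNAs of this class are made while DNA is replicated and carry no poly(A) tail. Their 3′ end is formed by a cut just after a conserved stem-loop, which is bound by the stem-loop binding protein SLBP, and the stem-loop stands in for the tail in translation and decay. A histone gene can also give a tailed transcript when the transcript runs past the stem-loop to a poly(A) signal further downstream. The libraries were selected for poly(A)+ RNA, so the values below describe the histone RNA that this selection kept and not all the histone mRNA in the cells.

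The cells were Cal62, an established human thyroid cancer line, transfected with a control siRNA (siControl) or with 1 of 2 siRNAs against ADAR1 (siADAR1 #1 and siADAR1 #2). ADAR1 is the enzyme that edits adenosine to inosine in double-stranded RNA. Each condition had 2 libraries from biological replicates of 1 cell line, so the p-values measure the spread between these libraries only, and the time from transfection to RNA isolation is not given in the sources used here. Values are given as normalized counts, which are reads on a gene divided by the size factor of its library. ADAR itself had 10906 and 11701 normalized counts in siControl, 1328 and 2246 with siADAR1 #1, and 1663 and 2928 with siADAR1 #2. Its log2FC was -2.71 with siADAR1 #1 (adjusted p = 0.00295, limma) and -2.35 with siADAR1 #2 (adjusted p = 0.00128, limma). Between 30114840 and 50029763 reads per library fell on genes. The 6 epithelial markers summed to 131972 and 180075 normalized counts in siControl, 207211 to 301310 with siADAR1 #1 and 104548 to 116083 with siADAR1 #2. They did not move alike. KRT7 had 87290 and 57869 in siControl, 195105 and 104894 with siADAR1 #1, and 38358 and 36763 with siADAR1 #2. KRT19 had 2887 and 2952, 3194 and 3453, and 7147 and 6164 in the same order. Of 6 fibroblast markers 3 reached 10 reads in any library, with sums of 5831 to 7175, 3365 to 3971 and 2867 to 3993. The 5 leukocyte markers summed to at most 134, with CD3E at 0 in all, and the 4 endothelial markers to at most 174. The 8 thyroid follicular markers summed to between 16292 and 18143 in siControl, 12849 and 17806 with siADAR1 #1, and 4692 and 7475 with siADAR1 #2, with NKX2-1 at 0 in all. The part of these shifts in the histone values was not tested. In bulk RNA, fewer cells making histone mRNA and less histone mRNA per cell cannot be told apart.

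The stem-loop is shown for 8 members, because it is the signal that normally replaces the poly(A) tail. A stem-loop of 16 bases, with a stem of 6 base pairs and a loop of 4 bases, was found within 150 bases of the stop codon in all 64 members, between 22 and 62 bases after it. In the lines below it stands in capitals between 5 flanking bases on each side, in the DNA letters of the coding strand (GRCh38, 5′ to 3′).
H2BC12: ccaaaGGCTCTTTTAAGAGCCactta
H2BC11: ctaacGGCTCTTTTAAGAGCCaccca
H2BC4: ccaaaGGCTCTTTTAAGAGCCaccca
H2BC21: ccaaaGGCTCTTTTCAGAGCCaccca
H1-2: caaaaGGCTCTTTTCAGAGCCaccac
H2AC6: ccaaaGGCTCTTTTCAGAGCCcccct
H4C8: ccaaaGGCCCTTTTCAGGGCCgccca
H4C9: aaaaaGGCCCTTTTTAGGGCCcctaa
On the minus strand, the capitals span chr6:27146366-27146381 in H2BC12, chr6:27132321-27132336 in H2BC11, chr6:26123472-26123487 in H2BC4, chr1:149886188-149886203 in H2BC21, chr6:26055744-26055759 in H1-2 and chr6:26285131-26285146 in H4C8. On the plus strand they span chr6:26124669-26124684 in H2AC6 and chr6:27139654-27139669 in H4C9. All 8 lie in the 3′ untranslated region of the gene. The form of H1-2, H2AC6 and H2BC21 was the most common and was shared by 35 of the 64 members and 15 of the 28 described. That of H2BC12, H2BC11 and H2BC4 was found in 9 of 64, that of H4C8 in 10 of 64 and that of H4C9 in 4 of 64. For 13 of the 28 members described, GENCODE or RefSeq annotated a transcript that ran more than 100 bases past the stem-loop. The same was true of 5 of the 36 members below the limit. H2BC21, H2BC11, H2BC4, H4C8, H2AC6 and H2BC12 were among the 13, whereas the annotated transcripts of H1-2 and H4C9 ended 4 and 9 bases after it. Whether the reads came from such longer transcripts was not tested.

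Histone genes made up a small part of the reads. All 64 members together took 266 and 160 RPM (reads scaled to the library total of reads on genes) in siControl, 631 and 477 with siADAR1 #1, and 244 and 217 with siADAR1 #2. Both siADAR1 #1 libraries lay above the other 4 libraries. The mean was 2.60 times that of siControl with siADAR1 #1 and 1.08 times with siADAR1 #2. The 3 genes with most reads, H2BC12, H1-2 and H4C9, held between 40.4% and 62.7% of the histone reads of a library, so the sum follows these genes. By family, the ratio of means of siADAR1 #1 to siControl was 4.03 for H1, 2.49 for H2B, 2.57 for H4, 1.81 for H3 and 1.73 for H2A. For siADAR1 #2 it was 0.922 for H1, 1.00 for H2B, 0.897 for H4, 1.25 for H3 and 1.87 for H2A. The H2A family was the exception to the pattern of the sum, with 30.4 and 20.4 RPM in siControl, 44.1 and 43.8 with siADAR1 #1, and 49.5 and 45.5 with siADAR1 #2. H2AC6 supplied most of these H2A reads.

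**Figure D1:**
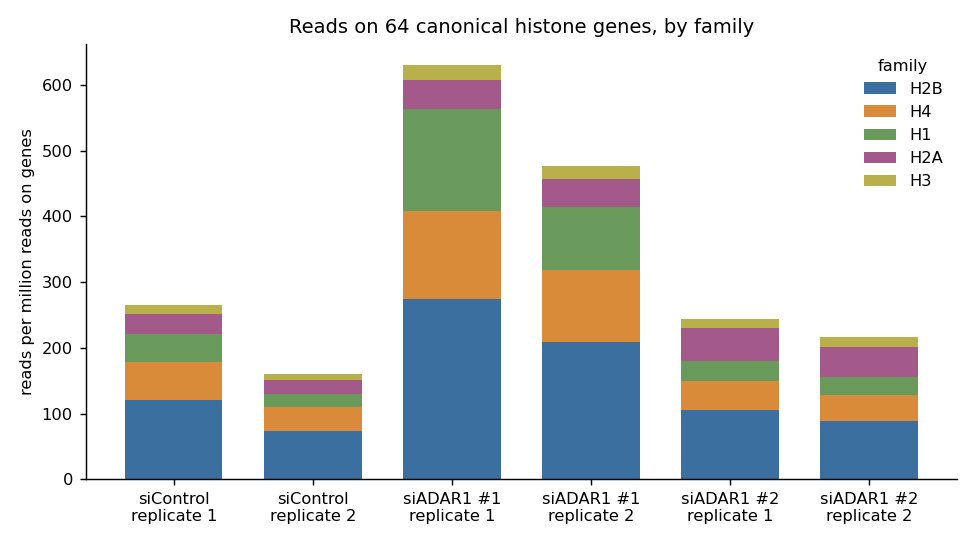
Histone reads in RPM (vertical axis, from 0) on the 64 canonical histone genes, relative to all reads on genes, in each of the 6 libraries, with each bar stacked by histone family. The siADAR1 #1 libraries reach 631 and 477, and the other 4 libraries lie between 160 and 266.

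The siControl replicates themselves differed. Replicate 1 was higher than replicate 2 for 25 of the 28 members, by a median of 0.81 on the log2 scale, where the median over all 20858 genes tested was 0.071. The same median was 0.24 between the siADAR1 #1 replicates and 0.16 between the siADAR1 #2 replicates. Some RNAs that carry no poly(A) tail differed in the same direction between the siControl replicates, in a list chosen after the values were seen. RN7SK, the RNA of the 7SK particle, had 255 normalized counts in replicate 1 and 95.9 in replicate 2, and the U1 RNA gene RNU1-1 had 360 and 49.98. RNU1-1 was higher in replicate 1 with both siRNAs too, at 399 and 87.9 with siADAR1 #1 and 645 and 57.1 with siADAR1 #2. Of the 8 RNAs listed, 4 were higher in replicate 1, 3 were higher in replicate 2 and RMRP was at 0 in both. The 8 RNAs summed to between 2370 and 2440 normalized counts in siControl, 8632 and 1249 in replicates 1 and 2 of siADAR1 #1, and 3130 and 1167 in replicates 1 and 2 of siADAR1 #2. The high sum of siADAR1 #1 replicate 1 came mainly from RN7SL2 and RN7SL1, RNAs of the signal recognition particle, at 5636 and 2131. The part of such carry-over in the histone values was not tested.

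With siADAR1 #1, 12 of the 28 members were higher than in siControl and 0 were lower. A gene was called where the adjusted p-value was under 0.05 and the log2FC was beyond 0.5 in either direction (limma, Benjamini-Hochberg adjustment over all 20858 genes tested). Over all genes tested, 16.8% were called, 6.18% higher and 10.6% lower. The members called were H1-2, H2AC6, H2BC4, H2BC8, H2BC11, H2BC12, H2BC21, H3C14, H4C8, H4C9, H4C14 and H4C16, so each of the 5 families was represented. H2BC12 and H4C9 kept 1 ratio in all libraries and H4C14 shares its reads with H4C15, so the 12 are not independent. The median log2FC was 0.82 over the 28 members and -0.02 over all genes tested. Both siADAR1 #1 libraries lay above both siControl libraries for 18 members and below both for 3 members, where the shares over all genes were 28.4% and 32.8%. Of the 8 members that were tested but lay below the limit of 4, 1, H1-3, was called higher and 0 lower. It had 3.27 and 2.04 normalized counts in siControl, 39.3 and 21.4 with siADAR1 #1, and 6.80 and 7.32 with siADAR1 #2. Only its siADAR1 #1 libraries lay above the filter level of 7.617. H1-3 was thus tested only through the group in which it was called higher. The count of 12 members called rested on single libraries. It was 3 without replicate 1 of siADAR1 #1, 7 without replicate 2 of siADAR1 #1 and 4 without replicate 2 of siControl. It was also 3 in a fit that gave all genes 1 prior variance, whatever their level. Without replicate 1 of siADAR1 #1, the calls of H1-2, H2BC12 and H2BC21 were among those lost. Those of H2BC12 and H2BC21 were also lost without replicate 2 of siControl. H2BC11, H2BC4 and H4C8 were called in each of these 4 fits, but with no filter on low values 0 members were called (adjusted p = 0.0849 for H2BC11, 0.11 for H2BC4 and 0.103 for H4C8). Among the 13 members with an annotated transcript more than 100 bases past the stem-loop, 8 were called higher (median log2FC 1.07), and among the other 15 members, 4 were (median 0.46), a difference that was not tested.

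With siADAR1 #2, 3 members were higher than in siControl, H2AC6, H2BC21 and H2BC8, and 3 were lower, H2BC11, H2BC17 and H4C11. The siADAR1 #2 log2 values were 2.775 and 3.037 for H2BC17 and 3.783 and 3.037 for H4C11, under the limit of 4. H2BC17 and H4C11 were thus described only through libraries outside the group in which they were called lower. Over all genes tested, 26.6% were called, 11.1% higher and 15.5% lower, so the 6 members were a share near that of all genes. Of the 8 tested members below the limit of 4, 0 were called higher and 1, H2AC16, lower (log2FC -1.75, adjusted p = 0.0183, limma), at 18.5 and 13.3 normalized counts in siControl and 3.40 and 2.93 with siADAR1 #2. With siADAR1 #1 it had 10.3 and 6.28. Both siADAR1 #2 libraries of H2AC16 lay under the filter level of 7.617. H2AC16 was thus tested only through libraries outside the group in which it was called lower. The median log2FC was -0.41 over the 28 members and -0.01 over all genes. The siADAR1 #2 libraries lay above both siControl libraries for 6 members and below both for 11, beside 32.3% and 35% of all genes. With the replicate number as a block in the fit, 5 members were called higher, H3C6 and H4C5 among them, and 6 lower, H2BC9, H2BC12 and H4C9 among them. The count of higher members was 5 without replicate 1 of siControl. The count of lower members was 1 without replicate 1 of siControl, 9 without replicate 2 of siControl and 5 without replicate 2 of siADAR1 #2. The median log2FC was -0.03 without replicate 1 of siControl.

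The siRNAs were then compared with each other, since a change called with 1 siRNA and not with the other need not differ between them. With siADAR1 #2, 11 members were lower than with siADAR1 #1 and 0 were higher, where 32.8% of all genes tested were called, 16.1% lower and 16.7% higher. H2BC17 and H4C11 were among the 11, and their siADAR1 #2 libraries lay under the limit of 4. The median log2FC of siADAR1 #2 against siADAR1 #1 was -0.995 over the 28 members and 0.00 over all genes. Both siADAR1 #2 libraries lay below both siADAR1 #1 libraries for 21 members, H1-2, H2BC11 and H4C8 among them, and above both for 3, H2AC6, H2BC21 and H4C5, beside 34.9% and 34.4% of all genes. The log2FC of this comparison uses no siControl library. Its p-values rest on 1 estimate of the spread from all 6 libraries, siControl included. The count of lower members ran from 8 to 14 when each of the 6 libraries was left out in turn.

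**Figure D2:**
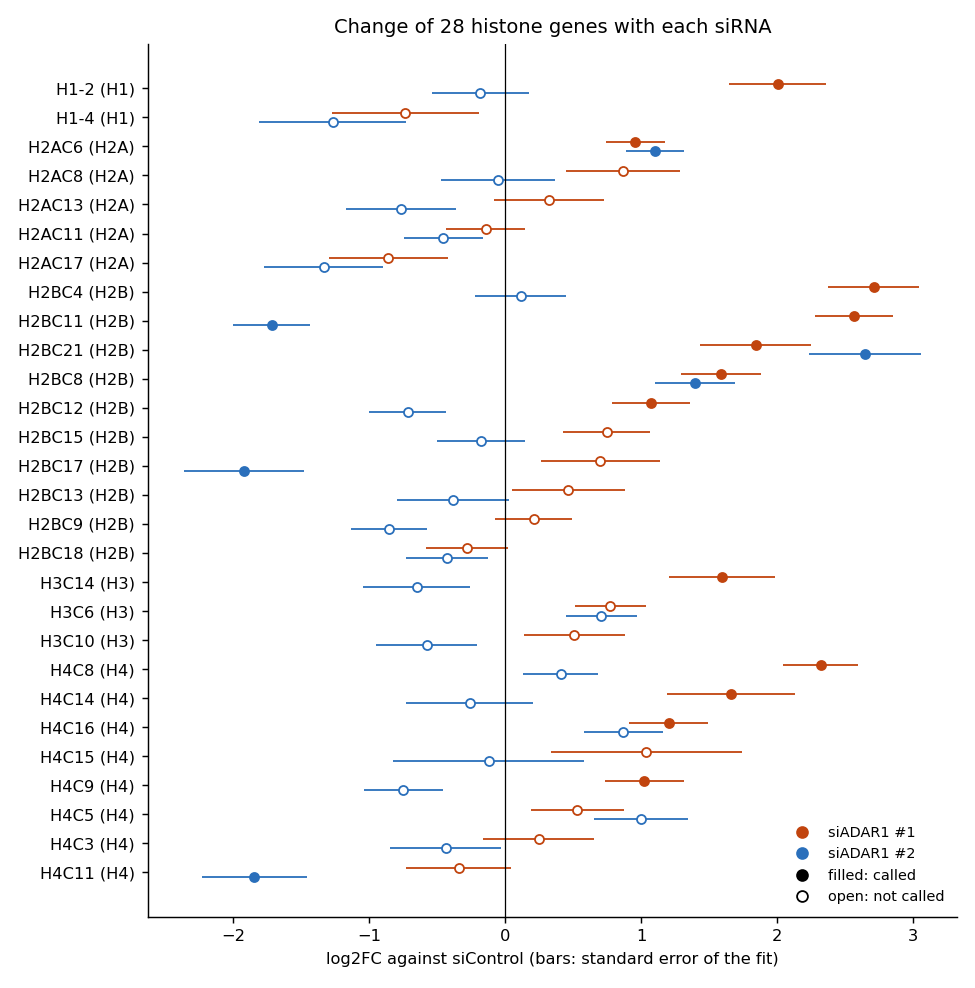
The log2FC against siControl (horizontal axis) of the 28 members, grouped by family, with siADAR1 #1 in orange and siADAR1 #2 in blue. Bars are the standard error of the limma fit, filled points were called and open points were not. H2BC11 has a log2FC of 2.57 with siADAR1 #1 and -1.72 with siADAR1 #2, and H2AC6, H2BC21 and H2BC8 are called higher with both.

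When both siRNAs were treated as 1 group against siControl, 0 of the 28 members and 0% of all genes were called (limma). At an unadjusted p-value under 0.05 there were 6 members and 2916 genes. All 4 siADAR1 libraries lay above both siControl libraries for 5 members, H2AC6, H2BC21, H2BC8, H3C6 and H4C16, and below both for 2, H2AC17 and H4C11, beside 12% and 16.6% of all genes. When the average of the changes with the siRNAs was tested in the fit with 3 groups, 6 members were called higher and 0 lower. The same test called 3585 of all 20858 genes tested, in either direction.

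Genes of histone H2B, which pairs with H2A in the nucleosome, held the widest differences. H2BC11 had 289 and 165 normalized counts in siControl, 1420 and 1200 with siADAR1 #1, and 71.4 and 58.6 with siADAR1 #2. The 3 conditions did not overlap, with siADAR1 #1 highest and siADAR1 #2 lowest. The log2FC was 2.57 ± 0.29 (SE, n = 2 per condition) with siADAR1 #1, a 5.92-fold higher level (adjusted p = 0.00295, limma). It was -1.72 ± 0.29 with siADAR1 #2 (adjusted p = 0.00354, limma), and the siRNAs differed by -4.28 (adjusted p = 0.000144, limma). H2BC11 was the 1 member called in opposite directions with the siRNAs.

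H2BC4 had 188 and 99.96 normalized counts in siControl, 1118 and 742 with siADAR1 #1, and 168 and 132 with siADAR1 #2. Its siADAR1 #1 libraries stood apart, while the siADAR1 #2 libraries lay between the siControl replicates. The level was 6.53-fold higher with siADAR1 #1 (log2FC 2.71 ± 0.34 SE, adjusted p = 0.00345, limma), and with siADAR1 #2 the log2FC was 0.11 (adjusted p = 0.837). Exons of HFE and of another gene on the opposite strand covered 30.9% of the H2BC4 exons in GENCODE. The strand setting of the read counting is not given in the sources used here, so it is not known whether reads of the opposite strand were counted on H2BC4.

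H2BC21 had 285 and 114 normalized counts in siControl, 818 and 524 with siADAR1 #1, and 1319 and 993 with siADAR1 #2. Here the siADAR1 #2 libraries were the highest. The level was 3.59-fold higher with siADAR1 #1 (log2FC 1.84 ± 0.41 SE, adjusted p = 0.0201, limma) and 6.26-fold higher with siADAR1 #2 (log2FC 2.65 ± 0.41 SE, adjusted p = 0.00264, limma). The siRNAs differed by a log2FC of 0.80 (adjusted p = 0.166), a difference called only with the replicate block. H2BC8 had 179 and 124 normalized counts in siControl, 523 and 392 with siADAR1 #1, and 501 and 313 with siADAR1 #2. All 4 siADAR1 libraries lay above siControl, and the log2FC was 1.59 with siADAR1 #1 (adjusted p = 0.0112, limma) and 1.40 with siADAR1 #2 (adjusted p = 0.00986, limma). The call with siADAR1 #1 was lost without either siControl replicate or without replicate 1 of siADAR1 #1, and that with siADAR1 #2 without replicate 2 of siControl or replicate 1 of siADAR1 #2.

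H2BC12 was the member with the highest level per kilobase of GENCODE exon, at a mean of 7235 normalized counts per kb in siControl, 14494 with siADAR1 #1 and 4173 with siADAR1 #2. This level rests on an exon length of 495 bp, while RefSeq annotates the gene to end 8073 bases past the stem-loop. H2BC12 had 4741 and 2421 normalized counts in siControl, 7987 and 6362 with siADAR1 #1, and 2232 and 1900 with siADAR1 #2. The siADAR1 #1 libraries were the highest and the siADAR1 #2 libraries the lowest, and the siControl replicates spanned a wide range between them. The log2FC was 1.07 ± 0.28 with siADAR1 #1 (adjusted p = 0.0364, limma), -0.72 ± 0.28 with siADAR1 #2 (adjusted p = 0.0964) and -1.79 between the siRNAs (adjusted p = 0.00227, limma). Of the 75-base windows of H2BC12, 39.0% also occur in another gene, among them H2BC12L, so its reads may be split. H2BC17 was a low member with 38.1 and 17.3 normalized counts in siControl, 48.6 and 38.9 with siADAR1 #1, and 4.54 and 5.86 with siADAR1 #2. The siADAR1 #2 libraries held 4 reads each, and the log2FC was -1.92 ± 0.44 against siControl (adjusted p = 0.0137, limma). This call was lost without replicate 1 of siControl or replicate 1 of siADAR1 #2.

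The other H2B genes, H2BC9, H2BC13, H2BC15 and H2BC18, were called with neither siRNA against siControl. H2BC9 had 158 and 104 normalized counts in siControl, 139 and 158 with siADAR1 #1, and 73.7 and 65.9 with siADAR1 #2, and it was lower with siADAR1 #2 than with siADAR1 #1 (log2FC -1.06, adjusted p = 0.0196, limma), a call that was lost without any 1 of the 4 libraries compared. H2BC15 had 367 and 187 in siControl, 503 and 387 with siADAR1 #1, and 253 and 211 with siADAR1 #2. The siADAR1 #1 libraries of H2BC15 lay above the other 4, and its log2FC of 0.75 missed the threshold (adjusted p = 0.151, limma), although it was called with the replicate block.

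**Figure D3:**
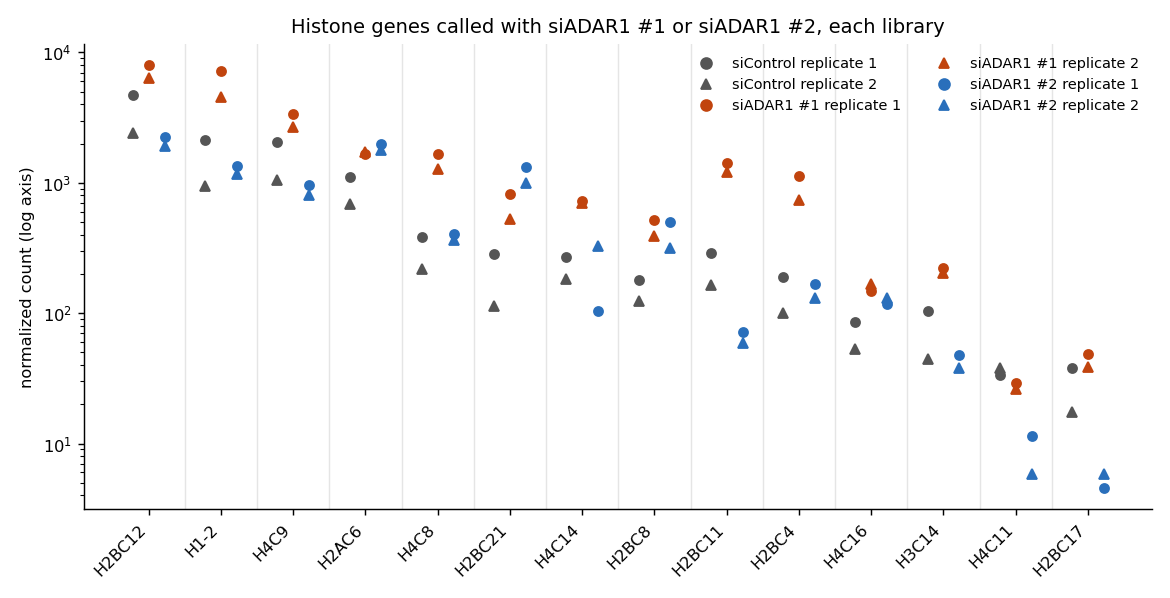
Normalized counts (vertical log axis) of the 14 members called with siADAR1 #1 or siADAR1 #2, ordered by mean level, with 1 point per library. Circles are replicate 1 and triangles replicate 2. The siADAR1 #1 points are above both siControl points for 13 of the 14 genes, and H4C11 is the exception.

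Of the H1 genes, which encode the linker histones that bind DNA between nucleosomes, only H1-2 and H1-4 reached the limit. H1-2 had 2110 and 952 normalized counts in siControl, 7142 and 4528 with siADAR1 #1, and 1344 and 1160 with siADAR1 #2. Its siADAR1 #1 libraries were the highest, and the siADAR1 #2 libraries lay between the siControl replicates. The level was 4.01-fold higher with siADAR1 #1 (log2FC 2.00 ± 0.36 SE, adjusted p = 0.00983, limma), and the siRNAs differed by -2.19 (adjusted p = 0.00252, limma). No 75-base window of H1-2 was shared with another gene. H1-4 had 77.3 and 24.5 normalized counts in siControl and between 14.6 and 32.7 in the siADAR1 libraries, and was not called (log2FC -0.73 with siADAR1 #1 and -1.27 with siADAR1 #2, adjusted p = 0.395 and 0.119).

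The H4 genes encode the core histone that pairs with H3 in the nucleosome. H4C8 had 387 and 218 normalized counts in siControl, 1675 and 1272 with siADAR1 #1, and 408 and 366 with siADAR1 #2. Only the siADAR1 #1 libraries stood clear of siControl. The level was 4.99-fold higher with siADAR1 #1 (log2FC 2.32 ± 0.28 SE, adjusted p = 0.00323, limma), and the log2FC was 0.41 with siADAR1 #2 (adjusted p = 0.312). A gene on the opposite strand covered 13.3% of the H4C8 exons, and 10.2% of its windows were shared with that gene. It is not known whether some of the H4C8 reads came from that gene. H4C16, on chromosome 12, had 84.9 and 53.0 normalized counts in siControl, 148 and 168 with siADAR1 #1, and 118 and 132 with siADAR1 #2, and was called with siADAR1 #1 (log2FC 1.20, adjusted p = 0.0262, limma). Its log2FC was 0.87 with siADAR1 #2 (adjusted p = 0.0565). H4C11 had 33.8 and 37.7 normalized counts in siControl, 29.0 and 26.4 with siADAR1 #1, and 11.3 and 5.86 with siADAR1 #2. The siADAR1 #2 libraries were the lowest (log2FC -1.85 ± 0.39 SE, adjusted p = 0.00945, limma), and 91.4% of its windows were shared with H4C12. The call of H4C11 was lost without either siControl replicate. H4C16 lost its call without any 1 of the 4 libraries compared. H4C5 had 59.9 and 34.7 normalized counts in siControl, 79.5 and 56.5 with siADAR1 #1, and 98.7 and 89.4 with siADAR1 #2, and was not called (log2FC 1.00 with siADAR1 #2, adjusted p = 0.0632, limma).

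H4C9 had 2061 and 1051 normalized counts in siControl, 3362 and 2666 with siADAR1 #1, and 956 and 801 with siADAR1 #2. Its values followed those of H2BC12 in each library, with a ratio of H4C9 to H2BC12 between 0.419 and 0.435. The SD of the log2 ratio over the 6 libraries was 0.023, where the median over all 378 pairs of members described was 0.912. The genes lie 6683 bp apart on opposite strands. RefSeq places the H2BC12 transcript at chr6:27138293-27146858 on the minus strand, and this span covers H4C9, at chr6:27139282-27139678 on the plus strand (GRCh38). The GENCODE transcript of H2BC12 ends 5 bases past the stem-loop. The log2FC of H4C9 was 1.02 ± 0.29 with siADAR1 #1 (adjusted p = 0.0464, limma), and the siRNAs differed by -1.77 (adjusted p = 0.00267, limma). H4C9 and H2BC12 are counted as separate members in this text, although their values may not be separate observations. How reads were assigned between them was not tested. The call of H4C9 with siADAR1 #1 was kept in 6 of 15 alternative fits.

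H4C14 and H4C15 on chromosome 1 are near-identical copies, and 96.2% and 100% of their windows were shared. With siADAR1 #2, H4C14 had 104 and 328 normalized counts and H4C15 had 273 and 51.3, so each replicate favoured another copy. Their sum was 378 and 379. In siControl the sum was 466 and 269, and with siADAR1 #1 it was 956 and 1006, at least 2.05 times the higher siControl value. H4C14 was called higher with siADAR1 #1 (log2FC 1.66, adjusted p = 0.0442, limma) and H4C15 was not (log2FC 1.04, adjusted p = 0.354). The call of H4C14 was lost without any 1 of the 4 libraries compared. The counts do not tell these copies apart, and the sum was not tested.

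**Figure D4:**
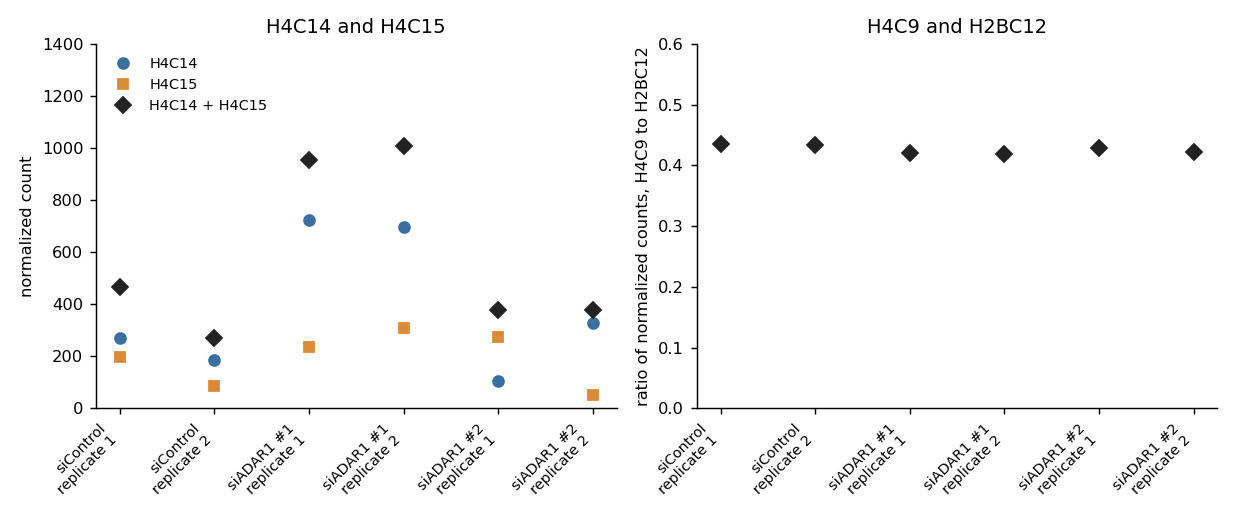
Left, normalized counts of the near-identical genes H4C14 and H4C15 and of their sum in each library. The sum is 378 and 379 with siADAR1 #2, although the genes exchange places between these replicates. Right, the ratio of H4C9 to H2BC12 normalized counts in each library, which stays between 0.419 and 0.435.

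Of the H3 genes, H3C14 had 103 and 44.9 normalized counts in siControl, 221 and 203 with siADAR1 #1, and 47.6 and 38.1 with siADAR1 #2. The siADAR1 #1 libraries were the highest (log2FC 1.60 ± 0.39 SE, adjusted p = 0.0275, limma), and the siRNAs differed by -2.25 (adjusted p = 0.00331, limma). As 99.1% of its windows were shared with other H3 genes, its reads cannot be assigned to 1 gene. Its call with siADAR1 #1 was lost without replicate 2 of siControl or either siADAR1 #1 replicate. H3C6 had 378 and 224 normalized counts in siControl and between 448 and 557 in the siADAR1 libraries. All 4 lay above siControl, but the log2FC of 0.77 and 0.71 missed the threshold (adjusted p = 0.0768 and 0.0767, limma). With the replicate block, H3C6 was called higher with both siRNAs. H3C10 had between 116 and 307 normalized counts and was not called.

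Among the 5 H2A genes described, H2AC6 was the 1 called. It had 1110 and 686 normalized counts in siControl, 1676 and 1717 with siADAR1 #1, and 1984 and 1774 with siADAR1 #2. All 4 siADAR1 libraries lay above both siControl libraries. The level was 1.94-fold higher with siADAR1 #1 (log2FC 0.96 ± 0.22 SE, adjusted p = 0.0211, limma) and 2.15-fold higher with siADAR1 #2 (log2FC 1.102 ± 0.22 SE, adjusted p = 0.00721, limma), and the siRNAs differed by 0.15 (adjusted p = 0.644). The call with siADAR1 #1 was lost without replicate 2 of siControl or either siADAR1 #1 replicate, and no single library ended the call with siADAR1 #2. No window of H2AC6 was shared with another gene. H2AC8, H2AC11, H2AC13 and H2AC17 were not called in any comparison. H2AC17 had 30.5 and 19.4 normalized counts in siControl and between 5.67 and 12.6 in the siADAR1 libraries, but an exon of H3C12 on the same strand covered 71.0% of it.

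Many H2A and H2B genes sit head to head, so that a short stretch of DNA holds the start of both. Among the 64 members, 12 such pairs had their GENCODE starts within 300 bases, and in 5 pairs both genes were described, with 219 to 248 bases between the starts. The stretches of H2BC4 and H2AC6 and of H2BC11 and H2AC11 are printed as examples of pairs whose genes had unlike values. They are the RefSeq windows of 250 bases before to 50 after the H2A start (GRCh38.p14, plus strand), chr6:26123922-26124221 and chr6:27132793-27133092. Capitals mark the TATA box TATAAA, the CCAAT box and the octamer ATTTGCAT, which POU2F1 binds, on either strand.
H2BC4 and H2AC6: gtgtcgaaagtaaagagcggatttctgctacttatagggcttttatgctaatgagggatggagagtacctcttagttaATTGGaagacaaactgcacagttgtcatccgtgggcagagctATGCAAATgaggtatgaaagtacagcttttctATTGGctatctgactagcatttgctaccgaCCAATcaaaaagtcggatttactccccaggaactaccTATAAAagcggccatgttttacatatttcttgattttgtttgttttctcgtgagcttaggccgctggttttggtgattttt
H2BC11 and H2AC11: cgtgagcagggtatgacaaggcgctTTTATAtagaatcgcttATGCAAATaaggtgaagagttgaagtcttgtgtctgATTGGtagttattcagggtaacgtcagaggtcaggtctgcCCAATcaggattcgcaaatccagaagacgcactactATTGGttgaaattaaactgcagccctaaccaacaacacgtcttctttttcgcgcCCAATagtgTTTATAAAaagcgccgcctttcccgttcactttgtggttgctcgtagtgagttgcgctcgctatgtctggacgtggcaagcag
Of the 59 members with a promoter entry in RefSeq, 27 of them described (all but H4C3), 66.1% held TATAAA, against 11.53% of all 35116 promoters of this length. CCAAT was in each H1, H2A, H2B and H3 promoter but in 3 of 13 H4 promoters, against 34.61% of all promoters. The octamer was in 78.6% of H2A and 77.8% of H2B promoters, in 0 of 6 H1 and 0 of 13 H4 promoters, and in 1.77% of all promoters. The H1 box AAACACAAA was in 3 of 6 H1 promoters and in 0.64% of all promoters. Both strands were searched, no motif contains another, and windows of head-to-head genes overlap.

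In the pair H2BC11 and H2AC11, the ratio of H2B to H2A normalized counts was 1.23 and 1.20 in siControl, 7.99 and 8.03 with siADAR1 #1, and 0.538 and 0.455 with siADAR1 #2. The ratio thus moved 17.7-fold between libraries, and replicates lay close together. H2AC11 itself had between 129 and 235 normalized counts in all 6 libraries and log2FC values of -0.14 and -0.45 (adjusted p = 0.781 and 0.285). In the pair H2BC4 and H2AC6 the ratio was 0.170 and 0.146 in siControl, 0.667 and 0.432 with siADAR1 #1, and 0.0846 and 0.0743 with siADAR1 #2. The ratio of H2BC8 to H2AC8 was 3.73 and 5.30 in siControl, 7.66 and 6.64 with siADAR1 #1, and 11.9 and 12.6 with siADAR1 #2. That of H2BC17 to H2AC17, both low, was 1.25 and 0.895 in siControl, 4 and 3.1 with siADAR1 #1, and 0.8 and 0.5 with siADAR1 #2. Only in the pair H2BC4 and H2AC6 were both genes called the same way with the same siRNA. The difference within a pair was not tested.

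**Figure D5:**
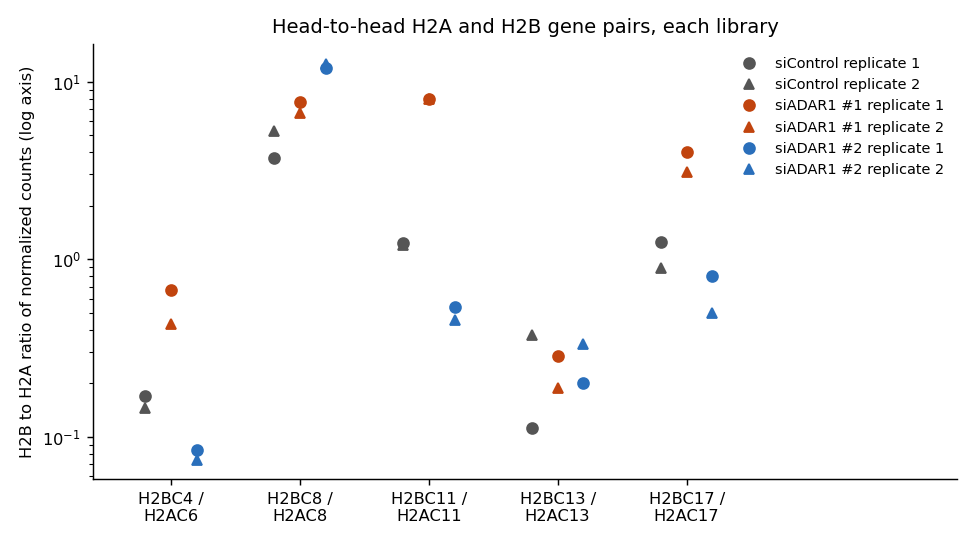
Ratio of H2B to H2A normalized counts (vertical log axis) in the 5 head-to-head pairs with both genes described, 1 point per library. The ratio of H2BC11 to H2AC11 is 7.99 and 8.03 with siADAR1 #1 and 0.538 and 0.455 with siADAR1 #2, while the groups overlap for H2BC13 and H2AC13.

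At the limit of description, H4C3 (mean log2 value 4.04) had between 7.94 and 21.4 normalized counts and H2AC17 (4.02) between 5.67 and 30.5. Just below it, H2BC7 (3.96) had between 8.71 and 22.7 and H2BC5 (3.96) between 1.02 and 39.3. The 36 members below the limit had at most 42 reads in any library, and 6 of them had 0 reads in all libraries. A count of 0 allows up to 3 reads, or 2.81 to 4.39 normalized counts depending on the library, for counting error only.

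The factors that make and process histone mRNA were read in the same libraries. SLBP had between 2847 and 3414 normalized counts and NPAT, the activator of histone gene transcription, between 3223 and 3809, and neither was called with siADAR1 #1 (log2FC -0.21 and -0.16) or with siADAR1 #2 (-0.13 and -0.10). Of 23 factors of histone transcription and 3′ end formation, 1 was called higher and 1 lower with siADAR1 #1, and 2 higher and 6 lower with siADAR1 #2, beside 16.8% and 26.6% of all genes called in either direction. LSM11, a subunit of the U7 particle that guides the cut, had 1207 and 935 normalized counts in siControl, 2805 and 2009 with siADAR1 #1, and 931 and 822 with siADAR1 #2 (log2FC 1.16 with siADAR1 #1, adjusted p = 0.00914, limma). ERI1, an exonuclease that trims the 3′ end of histone mRNA, had 3009 and 2653 in siControl, 2734 and 2846 with siADAR1 #1, and 811 and 959 with siADAR1 #2 (log2FC -1.68 with siADAR1 #2, adjusted p = 0.000355, limma). POU2F1, which binds the octamer of H2B promoters, had 4824 and 3935 in siControl, 4456 and 3919 with siADAR1 #1, and 1900 and 1948 with siADAR1 #2 (log2FC -1.18, adjusted p = 0.000921, limma). CPSF2, a subunit of the cleavage complex, was also lower with siADAR1 #2 (log2FC -0.91, adjusted p = 0.00478, limma).

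Of 14 factors of the poly(A) tail and the nuclear exosome, 1 was called higher and 1 lower with siADAR1 #1, and 2 higher and 2 lower with siADAR1 #2, beside the same 16.8% and 26.6% of all genes. PAPOLA, a poly(A) polymerase, was lower with siADAR1 #2 (log2FC -0.77, adjusted p = 0.00228, limma), as was the nuclear poly(A) binding protein PABPN1 (log2FC -0.53, adjusted p = 0.0084, limma). ZFC3H1, which links polyadenylated nuclear RNA to the exosome, was higher with siADAR1 #2 (log2FC 0.68, adjusted p = 0.00335, limma). PABPC1, the cytoplasmic poly(A) binding protein, was lower with siADAR1 #1 (log2FC -0.87, adjusted p = 0.00751, limma).

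Genes of DNA synthesis are expressed in the same phase of the cell cycle as the histone genes. Of 20 S phase genes, 15 were called lower and 1 higher with siADAR1 #1, and 18 lower and 0 higher with siADAR1 #2, with medians of -0.71 and -1.09, where 10.6% and 15.5% of all genes were called lower. CDC6, which loads the replicative helicase, had 8375 and 7566 normalized counts in siControl, 5505 and 6001 with siADAR1 #1, and 2235 and 2527 with siADAR1 #2 (log2FC -1.74 with siADAR1 #2, adjusted p = 0.000259, limma). MCM7 and MCM4, subunits of that helicase, were lower with both siRNAs (log2FC -0.68 and -0.61 with siADAR1 #1, and -1.25 and -1.26 with siADAR1 #2). The medians of the histone members with the same siRNAs were 0.82 and -0.41, and the difference between the lists was not tested. Both comparisons share the siControl libraries.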

How the data were processed

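Poly(A)+ RNA of Cal62 cells was sequenced with 75-bp paired-end reads. The labels name 1 sample per transfection and the table holds 2 columns for each, taken as the biological replicates of the methods. Per the submitters' processing notes, FastQC, Salmon and featureCounts were used with GRCh38. The authors deposited log2 values made by variance stabilization of normalized gene counts. Undoing the transformation gave whole reads for 100% of values, within a tolerance of 0.1. Totals ranged from 30114840 to 50029763 reads, and 0 columns were left unused.

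Conditions were tested on the log2 values by limma (version 3.58.1, R 4.3.3), with linear models moderated by an eBayes trend, for the 20858 genes with a mean of at least log2 of 10, where the normalized count was 7.617. Tests were two-sided, with 3 residual degrees of freedom (4 for both siRNAs as 1 group). Fold changes are on the scale of the deposited log2 values and understate changes of low genes. Gene names, exon lengths and stem-loops came from GENCODE release 44 and promoters from RefSeq, which need not be the annotation used for counting. Of the symbols that fit the definition, 69 were in GENCODE, and 5 of them (H2AC18, H2AC19, H3C2, H3C3 and H3C15) were not analysed here.

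Same-numbered replicates deviated together (r = 0.106, 0.110 and 0.162 over 20858 genes), so a fit with the replicate number as a block was run. The steps were tested on simulated data that gave all genes the same setting of spread and no replicate effect. That run does not bear on calls under the replicate differences seen here. The members described, the lists and the tests were chosen with earlier results of these data known. The text names in full at most 12 called members with the smallest adjusted p-values, the 5 highest per kilobase and those nearest the limit of 4, and from each other list at most 4 genes with the smallest adjusted p-values plus SLBP, NPAT and ADAR. The values of 1 gene that this rule names are not reported here. H1-3 and H2AC16 lie outside it and were named after their values were seen. H2BC9, H2BC15, H4C5 and H4C16 were also given in full outside this rule, and H4C14 and H4C15 in part.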

Additional observations from a re-analysis of the deposited data

Results flagged for a closer look

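The change with siADAR1 #2 differed from the change with siADAR1 #1 for 11 of the 28 histone genes described, in the test of the difference itself (limma, adjusted over 20858 genes), and all 11 were lower with siADAR1 #2. The log2FC of siADAR1 #2 against siADAR1 #1 was -4.28 for H2BC11, -2.62 for H2BC17, -2.60 for H2BC4, -2.25 for H3C14 and -2.19 for H1-2. It was -1.92 for H4C14, -1.91 for H4C8, -1.79 for H2BC12, -1.77 for H4C9, -1.50 for H4C11 and -1.06 for H2BC9, with adjusted p-values from 0.000144 to 0.0196. Of these genes, 5 had under 10% of their 75-base windows shared with another gene. H2BC12 and H4C9 kept 1 ratio in all libraries and H4C14 shares its reads with H4C15, so the 11 are not independent. H2BC17 and H4C11 reached the limit of 4 only through libraries other than those of siADAR1 #2. The call of H2BC9 was lost without any 1 of the 4 libraries compared, that of H4C11 without either siADAR1 #1 replicate or replicate 2 of siADAR1 #2, and that of H4C14 without replicate 1 of siADAR1 #1. With 2 libraries per condition no single library could be tested as an outlier.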

How the results depend on the processing

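With no filter on low values, 0 members were called higher with siADAR1 #1, 0 higher and 0 lower with siADAR1 #2, and 1 lower in siADAR1 #2 against siADAR1 #1. With only rows without a read left out, an alternative chosen after seeing the data, these counts were 9, 3, 3 and 11. Without an eBayes trend, 3 members were called higher with siADAR1 #1. With siADAR1 #2, 5 were called higher with a filter at 50, 5 lower after quantile normalization, and 1 lower among members with a mean of at least 6. With the replicate block, 5 were higher and 6 lower with siADAR1 #2, and 1, H2BC21, was higher in siADAR1 #2 against siADAR1 #1, and the block moved no other count of called members by over 1.5 times. Among members with under 10% shared windows, also chosen after seeing the data, 7 were higher with siADAR1 #1 and 5 lower between the siRNAs. The average of the siRNA changes called 6 higher where both siRNAs as 1 group called 0. Leaving out each library in turn gave 3 to 11 members higher with siADAR1 #1, 2 to 5 higher and 1 to 9 lower with siADAR1 #2, and 8 to 14 lower between the siRNAs. The cause of the other shifts was not tested. For the 29 calls of single members, 431 alternative values were computed, of which 83 were no longer called and 0 changed direction. Voom on the recovered reads, median centring and fits with only the 4 libraries compared left each of these counts within 1.5 times. The number of replicates limits the precision, and members near 10 reads are also limited by depth. Over all genes, 3502 were called with siADAR1 #1, 5541 with siADAR1 #2, 6838 between the siRNAs and 0 with both siRNAs as 1 group. With no filter these were 548, 2103, 3221 and 159. Without a trend 1347 were called with siADAR1 #1, and the average of the siRNA changes called 3585. With siADAR1 #1, 392 were called without replicate 1 of siControl, 1248 without its replicate 2 and 1412 without replicate 1 of siADAR1 #1. With siADAR1 #2, 3150 were called without replicate 1 of siControl and 3242 without replicate 1 of siADAR1 #2.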

Other observations

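Histone chaperones carry new histones to DNA. Of 23 chaperone and import genes, 1 was called higher and 4 lower with siADAR1 #1, and 0 higher and 9 lower with siADAR1 #2, where 6.18% and 10.6% of all genes were called higher and lower with siADAR1 #1 and 11.1% and 15.5% with siADAR1 #2. ASF1B, a chaperone of H3 and H4, had 4734 and 4000 normalized counts in siControl, 3821 and 4133 with siADAR1 #1, and 1287 and 1617 with siADAR1 #2 (log2FC -1.59 with siADAR1 #2, adjusted p = 0.000477, limma). CHAF1A and CHAF1B, subunits of chromatin assembly factor 1, were lower with both siRNAs (log2FC -0.78 and -0.51 with siADAR1 #1, and -1.25 and -1.14 with siADAR1 #2). NASP, a chaperone of soluble H3 and H4, was lower with siADAR1 #2 (log2FC -0.95, adjusted p = 0.00155, limma).

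Replacement histone variants are encoded outside the clusters, mostly by genes with tailed mRNAs. Of 12 such variant genes, 1 was called higher and 2 lower with siADAR1 #1, and 2 higher and 5 lower with siADAR1 #2. Over all genes, 6.18% were called higher and 10.6% lower with siADAR1 #1, and 11.1% and 15.5% with siADAR1 #2. H2AZ1 and H2AZ2, which encode the variant H2A.Z, had log2FC values of -1.02 and -1.18 with siADAR1 #2 (adjusted p = 0.000819 and 0.000563, limma) and of -0.19 and -0.31 with siADAR1 #1, where they were not called. MACROH2A1 had a log2FC of -0.86 with siADAR1 #2 (adjusted p = 0.00156, limma). H3-3A, a gene of the variant H3.3, had 4022 and 5033 normalized counts in siControl, 12450 and 10583 with siADAR1 #1, and 10377 and 9121 with siADAR1 #2, and was called higher with both (log2FC 1.35 and 1.11, adjusted p = 0.00292 and 0.0015, limma).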
